A study of Mus musculus with 12 samples.

Results

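The neutrophil primary granule genes described here are Mpo, Elane, Prtn3, Ctsg, Ms4a3 and Fcnb, genes of the azurophil granules and of promyelocytes. They were taken by gene symbol, older names such as Ela2 for Elane included, and matched 11 of 45281 probes on Illumina mouse arrays, which makes 6 of 20289 genes with a probe. Mpo had 4 probes, Ms4a3 and Fcnb 2 each, and Elane, Prtn3 and Ctsg 1 each. All 6 genes and all 11 probes passed the filter on dim probes, which kept those above background (detection p under 0.05) on 3 or more of the 12 arrays. RNA came from bone marrow cells of 3-month-old mice that carried a β-globin/GFP transgene, a reporter made for scoring gene editing, so every group shared this transgene. Cells were sorted with magnetic beads by CD117, the receptor tyrosine kinase c-Kit, which marks haematopoietic progenitors and also mast cells. There were 4 groups of 3 arrays, named by the letters of their titles. The CD117- group (A) held the fraction labelled as lacking the receptor. The CD117+ group (C) held the fraction labelled as bearing it. The second CD117+ group (U) carried no stated treatment, and no label writes out what its letter stands for. In the SCF group, CD117+ cells had been treated for 48 hours with 3 µg per ml of stem cell factor (SCF), the ligand of c-Kit. The CD117+ and CD117- cells were stated to come from 3 mice, a separate one for each replicate, without saying whether the fractions of 1 mouse make an A and a C sample, and the mice of the U and SCF samples were not described apart. For other experiments of the study, CD117+ cells were grown in medium with insulin, serum and erythropoietin, and whether the cells on the arrays were grown so was not said. Where samples were not from separate mice, the p-values measure only the spread between these samples.

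Neutrophils load their granules in an order that follows their development. Promyelocytes fill the primary, or azurophil, granules with myeloperoxidase and with serine proteases, and transcription of these genes normally stops as myelocytes and later stages fill the secondary and tertiary granules with proteins such as lactoferrin and cathelicidin. The proteases are made as inactive precursors, are activated by cathepsin C and are held in check by serpins and other inhibitors. In bulk RNA, fewer cells of a type and less RNA per cell cannot be told apart.

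The arrays had 16210 to 18248 probes above background, a median scanner intensity of 87.03 to 109.9 and a highest one of 19953 to 24384. The A arrays had fewer probes above background (16210 to 17394) and lower medians (87.03 to 93.19) than every array of the other groups. After background correction and quantile normalization, log2 intensities ran from 4.63 to 4.82 for the dimmest detected probe of an array up to 14.43 for the brightest one. Kit, which encodes the receptor used for sorting, lay at 8.94 to 9.58 on the log2 scale in CD117- cells, 11.39 to 11.57 in CD117+ (C) cells, 10.06 to 10.39 in the U group and 10.61 to 10.74 in the SCF group, so the sorted fractions differed in the direction of their labels, although Kit was well above background in the CD117- fraction too. In the processed values that the authors deposited, the sorted values of any 2 arrays differed by a median of at most 0.0116% within groups A and C and at most 0.00864% within groups U and SCF, but by 9.70% to 9.75% between these sets, so the sets had been normalized separately. No label names array sets or batches. In any comparison of U or SCF with C, the group cannot be told apart from a difference in array run, if there was one. The same holds for time in culture, which was not stated for the A, C or U cells. Between SCF and U too, a difference in time in culture, if there was one, cannot be told apart from SCF. Of 4303 genes with 2 or more detected probes, 276 had probes called in opposite directions between U and C and 231 between SCF and C, against 25 between C and A and 5 between SCF and U.

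The genes lie on 5 chromosomes, and Prtn3 and Elane are neighbours on chromosome 10 (GRCm38.p6, 79879667 to 79883174 and 79886312 to 79888216). Fcnb lies on chromosome 2 (28076479 to 28084910), Mpo on chromosome 11 (87793784 to 87804412), Ctsg on chromosome 14 (56099885 to 56102574) and Ms4a3 on chromosome 19 (11629499 to 11640851). Promoters are shown for the 3 serine protease genes and Mpo, which were higher with SCF than in the U group on at least 1 probe, and for Fcnb, which was lower. Ms4a3 was higher too, but its promoter is not shown, as none of the motifs named below matched before its start site. The sequences, from RefSeq on GRCm38.p6, are the 250 bases before the annotated start site, read 5′ to 3′ on the strand of the gene. For Fcnb this start site lies inside the gene span given above, as the stretch begins at 28084879 and the span ends at 28084910. Its distances below are counted from that inner site. Capitals mark matches, on either strand, to 4 short motifs of myeloid transcription factors, namely GAGGAA for PU.1, AACTG for MYB, TGTGGT for RUNX and TTGCNNAA for C/EBP. No match of 1 motif overlapped that of another in the stretches shown.
Elane (chr10:79886062-79886311, plus strand): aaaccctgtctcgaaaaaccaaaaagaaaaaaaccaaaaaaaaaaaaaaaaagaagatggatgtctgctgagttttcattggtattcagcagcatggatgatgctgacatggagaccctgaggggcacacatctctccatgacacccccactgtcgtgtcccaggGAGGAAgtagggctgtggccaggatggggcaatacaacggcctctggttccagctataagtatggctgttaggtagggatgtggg
Prtn3 (chr10:79879417-79879666, plus strand): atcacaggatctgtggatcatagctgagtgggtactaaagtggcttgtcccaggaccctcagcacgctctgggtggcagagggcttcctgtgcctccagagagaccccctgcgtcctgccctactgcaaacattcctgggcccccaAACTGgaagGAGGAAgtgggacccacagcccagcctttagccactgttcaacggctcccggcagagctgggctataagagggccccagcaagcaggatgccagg
Ctsg (chr14:56102575-56102824, minus strand): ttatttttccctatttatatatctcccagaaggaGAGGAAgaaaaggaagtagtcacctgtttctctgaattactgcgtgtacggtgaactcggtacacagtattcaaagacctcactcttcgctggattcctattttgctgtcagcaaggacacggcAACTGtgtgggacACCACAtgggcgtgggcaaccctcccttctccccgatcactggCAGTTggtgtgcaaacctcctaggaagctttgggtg
Mpo (chr11:87793534-87793783, plus strand): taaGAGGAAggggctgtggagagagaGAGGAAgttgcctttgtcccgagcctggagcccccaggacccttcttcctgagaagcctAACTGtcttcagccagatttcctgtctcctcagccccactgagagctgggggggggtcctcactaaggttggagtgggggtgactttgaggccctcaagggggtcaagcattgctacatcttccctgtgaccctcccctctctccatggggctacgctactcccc
Fcnb (chr2:28084879-28085128, minus strand): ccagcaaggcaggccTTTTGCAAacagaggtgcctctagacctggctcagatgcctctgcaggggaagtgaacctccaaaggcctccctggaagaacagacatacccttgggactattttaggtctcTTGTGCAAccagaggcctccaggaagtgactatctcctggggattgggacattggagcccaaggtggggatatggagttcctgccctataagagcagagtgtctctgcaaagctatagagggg
The PU.1 letters began 85 bases before the start site of Elane, 95 bases before that of Prtn3, 216 bases before that of Ctsg and at 247 and 224 bases before that of Mpo. In the promoter of Prtn3, the MYB letters began at 104 bases, just ahead of the PU.1 match. The Ctsg promoter held MYB letters at 92 and 36 bases and the only RUNX letters of the set at 79 bases. The Fcnb promoter held no PU.1 letters and instead C/EBP letters at 235 and 123 bases. Over the whole promoter window of 300 bases, with 50 bases after the start site, the PU.1 letters were present in 5 of 6 genes, against 28.28% of 32851 mouse promoters of the same length. The MYB letters were present in 4 of 6 against 44.8%, those of C/EBP in 2 of 6 (Fcnb and Ms4a3) against 10.8%, and those of RUNX in 1 of 6 against 16.76%. TATAAA on the sense strand was present in 0 of 6 against 8.319%. The PU.1 and C/EBP letters of Ms4a3 and the MYB letters of Fcnb lay after the start site. A match describes the letters only and is not a bound site.

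Elane encodes neutrophil elastase, a serine protease of the azurophil granules. Its log2 intensity was 13.33, 13.28 and 13.65 in CD117- cells, 13.32, 13.42 and 13.16 in CD117+ (C) cells, 11.80, 11.58 and 11.88 in the U group and 12.32, 12.00 and 12.35 in the SCF group. The A and C samples overlapped, all U samples were lower than every other sample, and the SCF samples lay between them and the rest. Prtn3 encodes proteinase 3, a related protease of the same granules. It measured 13.10, 12.97 and 13.51 in CD117- cells, 13.41, 13.41 and 13.05 in CD117+ (C) cells, 12.34, 12.14 and 12.30 in the U group and 13.08, 13.06 and 13.56 in the SCF group. The 3 U samples were the lowest of all, and the other 3 groups overlapped. Ctsg encodes cathepsin G, the third serine protease of these granules. It measured 12.83, 12.49 and 12.71 in CD117- cells, 13.21, 13.30 and 12.98 in CD117+ (C) cells, 12.42, 12.23 and 12.45 in the U group and 13.09, 13.25 and 13.20 in the SCF group. Both C and SCF samples were above every A and U sample.

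Ms4a3 encodes a membrane protein with 4 membrane-spanning segments that is known for its expression in granulocyte-monocyte progenitors. Its brighter probe measured 11.55, 11.15 and 11.39 in CD117- cells, 10.87, 10.94 and 10.75 in CD117+ (C) cells, 10.10, 10.08 and 10.11 in the U group and 11.48, 11.46 and 11.34 in the SCF group. The C samples were below the A and SCF samples, and the U samples were the lowest. Fcnb encodes ficolin B, a lectin of the complement system. Its brighter probe measured 12.07, 11.82 and 12.45 in CD117- cells, 7.72, 8.25 and 7.35 in CD117+ (C) cells, 7.51, 7.27 and 7.52 in the U group and 6.64, 6.75 and 6.07 in the SCF group. Fcnb was thus high in CD117- cells only, and its SCF samples were the lowest. Mpo encodes myeloperoxidase, which makes hypochlorous acid from hydrogen peroxide and chloride. Its brightest probe measured 13.96, 13.86 and 13.89 in CD117- cells, 13.76, 13.90 and 13.97 in CD117+ (C) cells, 13.89, 13.85 and 13.67 in the U group and 13.77, 13.73 and 13.68 in the SCF group. These 12 values overlapped between each pair of groups compared below, near the top of the scale.

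**Figure D1:**
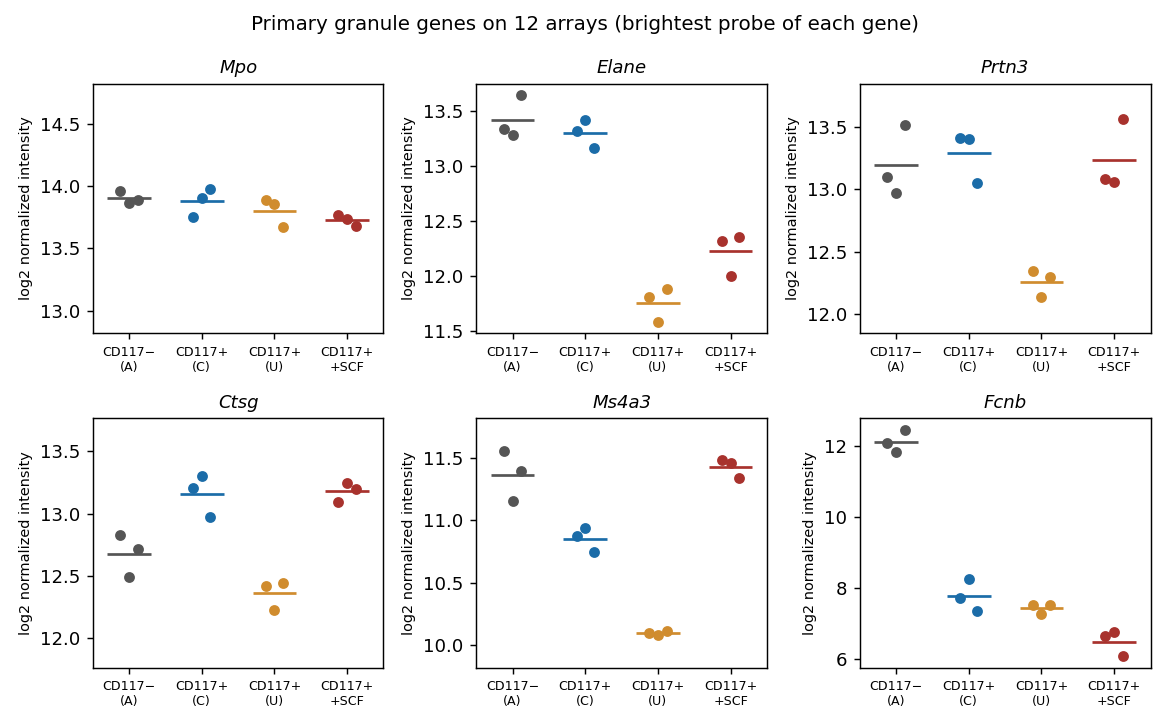
Log2 normalized intensity (y axis) of the brightest probe of Mpo, Elane, Prtn3, Ctsg, Ms4a3 and Fcnb on 12 arrays in 4 groups (x axis). Points are arrays and lines are group means. The y axes differ between panels. Elane, Prtn3, Ctsg and Ms4a3 are lowest in the U group, Fcnb is high only in CD117- cells (11.82 to 12.45), and Mpo stays between 13.67 and 13.97.

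The first comparison asked how the fraction labelled CD117+ (C) differed from the fraction labelled CD117-. Elane, Prtn3 and the brightest Mpo probe showed no difference between CD117+ (C) and CD117- cells that passed the test, Ctsg was higher in CD117+ cells, and Ms4a3 and above all Fcnb were lower. Of the 6 genes, 1 was called higher, 2 lower and 3 in neither direction by limma at an adjusted p under 0.05 over 11472 genes, while 29.6% of all genes were called higher and 21.3% lower. The same 3 called genes were those whose samples did not overlap, which held for 57.2% of all genes. The median log2 change of the 6 genes was -0.07, that of all genes 0.07. Fcnb was 20.3-fold lower (log2 change -4.34 ± 0.23 SE, n = 3 arrays per group, limma adjusted p = 1.07e-10). Ms4a3 was 1.43-fold lower (-0.51 ± 0.12, adjusted p = 0.00147), and Ctsg 1.40-fold higher (0.48 ± 0.12, adjusted p = 0.00207). For Mpo the change was -0.03 with a 95% confidence interval of -0.22 to 0.17, for Elane -0.12 with an interval of -0.39 to 0.16, and for Prtn3 0.10 with an interval of -0.23 to 0.43. The Mpo value is that of its brightest probe, and 2 dimmer Mpo probes, described below, were called higher.

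The scaling of the arrays weighed on these small changes. Of the genes called between CD117+ (C) and CD117- cells, 58.1% were higher after quantile normalization and 85.4% after scaling each array by its median, which moved the median log2 change of all genes from 0.07 to 0.49. With median scaling Prtn3 was 0.61 higher (adjusted p = 0.0169) and Ms4a3 changed sign, to 0.10 (adjusted p = 0.595), both beside that shift of 0.49. On the scanner scale, before any normalization, Ctsg averaged 4599.8 ± 845 (SD, n = 3) in CD117- and 9475 ± 1428 in CD117+ (C) cells, and Ms4a3 averaged 1788 ± 372 and 1851 ± 186. Fcnb kept its direction on that scale, with 3095 ± 1198 in CD117- and 295.8 ± 76.9 in CD117+ (C) cells.

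Genes of the later granules were set apart from these values. Of 10 genes of the secondary and tertiary granules, 9 were lower in CD117+ (C) than in CD117- cells, 0 were higher and 1 was not called, with a median log2 change of -6.69. Camp, which encodes the cathelicidin precursor, fell by 8.48, Ltf, which encodes lactoferrin, fell by 8.16, and Lcn2, which encodes the iron-siderophore binding protein lipocalin 2, fell by 7.30 on the log2 scale. Other proteins of azurophil granules, most of them shared with lysosomes, were lower for 7 of 10 tested genes and higher for 0, with a median of -0.59. Among them Lyz2, which encodes lysozyme, fell by 1.90, and the lysosomal membrane proteins Cd68 and Cd63 fell by 1.57 and 0.94. Dimmer probes of Lyz2 gave -3.27 (adjusted p over 17712 probes = 2.58e-10) and -0.55 (adjusted p = 0.0591). The 11th gene of that list, Bpi, was not above background often enough to be tested.

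Of the 8 tested genes for processing, folding and inhibition of the granule enzymes, 1 was higher, 4 were lower and 3 were not called between CD117+ (C) and CD117- cells. The serpins Serpinb1a and Serpinb6a, inhibitors of granule proteases, fell by 2.51 and 1.33, and Slpi, which encodes a secreted inhibitor of elastase, fell by 0.93. Ctsc, the gene of the activating cathepsin C, changed by -0.21 (adjusted p = 0.395). Of 11 transcription factor and receptor genes of granulocyte precursors, 3 were higher, 5 lower and 3 not called. Cebpe, the factor that drives the switch to later granules, fell by 2.67, Csf3r, which encodes the receptor for granulocyte colony-stimulating factor, fell by 2.46, and Spi1, the gene of PU.1, fell by 1.39.

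Markers of other cells moved with the sort. Of 7 tested mast cell and basophil markers, 5 were higher in CD117+ (C) cells and 1 lower, and their summed normalized intensity rose from a range of 6065 to 6683 in CD117- cells to 8649 to 9540. Ms4a2 and Cma1 of that list were above background on 0 of 3 CD117- arrays. Of 6 monocyte and macrophage markers, 0 were higher and 3 lower, with summed ranges of 2269 to 3450 and 2824 to 3739. Their part in the changes of Ctsg, Ms4a3 and Fcnb was not tested.

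The next comparison asked what differed in CD117+ cells after SCF, against the U group. Time in culture was not stated for the U cells. If it differed, its part and that of SCF cannot be told apart. Most of the primary granule genes were higher with SCF: Ms4a3 2.51-fold, Prtn3 1.97-fold, Ctsg 1.76-fold and Elane 1.38-fold, while Fcnb was 1.92-fold lower. Of the 6 genes, 4 were called higher, 1 lower and 1, Mpo by its brightest probe, in neither direction, and 14.1% of all genes were called higher and 13.7% lower. The samples of the 5 called genes did not overlap between the groups, as was the case for 42.0% of all genes. The median log2 change of the 6 genes was 0.64 against 0.02 for all genes. Ms4a3 rose by 1.33 ± 0.12 SE on the log2 scale (n = 3 arrays per group, limma adjusted p = 9.15e-07), Prtn3 by 0.97 ± 0.16 (adjusted p = 0.000207), Ctsg by 0.81 ± 0.12 (adjusted p = 7.36e-05) and Elane by 0.47 ± 0.13 (adjusted p = 0.0121). Fcnb fell by 0.94 ± 0.23 (adjusted p = 0.00488). The brightest Mpo probe changed by -0.08, with a 95% confidence interval of -0.27 to 0.12. The call for Elane was lost with median scaling (0.47, adjusted p = 0.0563), and when any of 3 arrays was left out. Without U replicate 2 it changed by 0.38 (adjusted p = 0.0636), without SCF replicate 1 by 0.42 (adjusted p = 0.05001) and without SCF replicate 3 by 0.40 (adjusted p = 0.0556). The other 4 called genes kept their calls in each of these settings.

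The same direction was not shared by most of the other granule genes. Of the other azurophil granule proteins, 1 of 10 was higher with SCF and 5 were lower, with a median of -0.42. The 1 that rose was Prss57, by 0.75 (adjusted p = 0.00198), which encodes neutrophil serine protease 4, a relative of elastase and proteinase 3. Cd68 fell by 1.18 and Ctsd, the gene of the lysosomal protease cathepsin D, fell by 0.69. Of the secondary and tertiary granule genes, 2 were higher, 4 lower and 4 not called, with a median of -0.08. The metalloprotease genes Mmp8 and Mmp9 rose by 0.76 and 0.70, and Retnlg, which encodes a resistin-like protein of neutrophils, fell by 2.10. The primary granule genes thus had a median above 0 and both other granule lists one below 0, a description for which the difference between lists was not tested.

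Among processing and inhibitor genes, 1 was higher with SCF, 2 were lower and 5 were not called. Cst7, which encodes cystatin F, an inhibitor of cathepsin C, rose by 0.60, whereas Serpinb6a and Slpi fell by 1.27 and 0.91. Among the transcription factor genes, 2 were higher, 2 lower and 7 not called. Gfi1, a repressor needed for neutrophil development, rose by 0.85. The monocyte-lineage factors Klf4 and Irf8 fell by 1.07 and 0.84, and 2 other Klf4 probes gave -1.16 (adjusted p over 17712 probes = 0.000978) and -0.68 (adjusted p = 0.0529). Of the other cells' markers, all 3 tested eosinophil genes were lower with SCF, and their summed intensity went from 10632 to 13128 down to 1539.9 to 1666. Of 7 mast cell and basophil markers 2 were higher and 1 lower, with overlapping summed ranges of 9641 to 11282 and 8738 to 11921, and of 6 monocyte and macrophage markers 1 was higher and 1 lower, with summed ranges of 3568 to 4823 and 2827 to 5077. Ccr2 of the latter list was above background on 0 of 6 arrays of both groups. Their part in the changes of the primary granule genes was not tested.

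**Figure D2:**
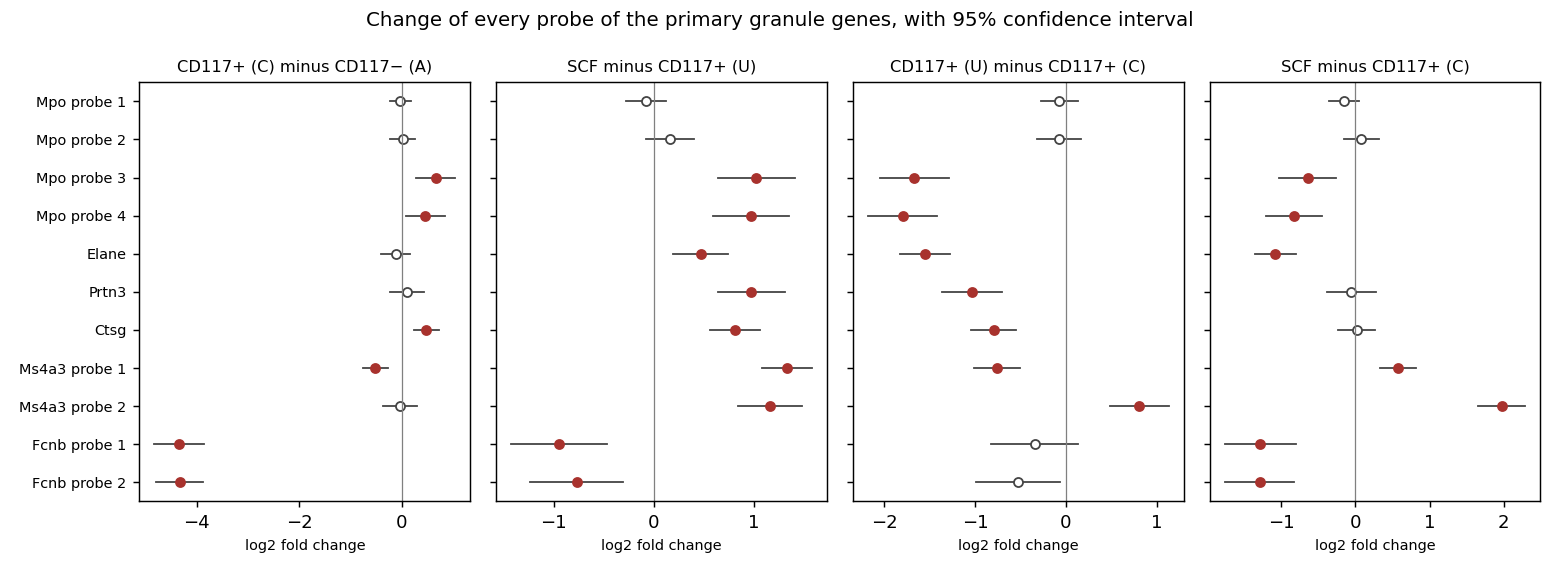
Log2 fold change (x axis) of each of the 11 probes (rows) in 4 comparisons, with the 95% confidence interval as a line. Filled points passed an adjusted p under 0.05 over 17712 probes. The dimmer Ms4a3 probe was above background on no array of groups A and C. Its points in the comparisons with these groups, filled or not, are therefore not read as tests. Rows of Mpo, Ms4a3 and Fcnb repeat a gene, and both Fcnb probes stand far to the left between CD117+ (C) and CD117- cells (-4.34 and -4.33).

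The 2 CD117+ groups with no stated SCF treatment were set against each other to see how alike they were. They differed for most of the genes: Elane was 2.92-fold, Prtn3 2.05-fold, Ctsg 1.73-fold and Ms4a3, by its brighter probe, 1.69-fold lower in the U group than in the C group. Of the 6 genes, 0 were called higher, 4 lower and 2 in neither direction, while 28.5% of all genes were called higher and 28.5% lower, and the samples of the 4 called genes, like those of 65.7% of all genes, did not overlap. The median log2 change of the 6 genes was -0.78, that of all genes -0.01. Elane fell by 1.55 ± 0.13 SE (n = 3 arrays per group, limma adjusted p = 3.02e-08), Prtn3 by 1.03 ± 0.16 (adjusted p = 2.61e-05), Ctsg by 0.79 ± 0.12 (adjusted p = 1.74e-05) and Ms4a3 by 0.76 ± 0.12 (adjusted p = 3.22e-05). Fcnb changed by -0.34 (95% confidence interval -0.82 to 0.14) and the brightest Mpo probe by -0.07 (-0.27 to 0.12). Of the called genes 49.99% were higher, but 61.1% were higher with median scaling and 87.9% in the authors' processed values, which had been normalized in separate sets. In those values Ms4a3 changed by -0.13 (adjusted p = 0.303).

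Later granule genes stood at the opposite side in this comparison. Of 10 secondary and tertiary granule genes, 9 were higher in the U group, 0 lower and 1 not called, with a median log2 change of 2.99. Among the 9, Mmp8 was above background on 0 of 3 C arrays and so passed the filter through arrays of other groups. Chil3, which encodes a chitinase-like protein of neutrophils and macrophages, rose by 7.41, Camp by 6.19 and Ltf by 6.01. Dimmer probes rose by 6.99 and 5.28 for Chil3 and by 2.43 for Ltf. Of the other azurophil granule proteins, 7 of 10 were higher and 2 lower, with a median of 1.09, and Cd68, Ctsd and Lyz2 rose by 3.74, 2.55 and 1.87. The dimmer Lyz2 probes rose by 4.39 and 5.28. Prss57 fell by 1.13 (adjusted p = 1.12e-05). It was named here after its values were seen, because it went the same way as Elane, Prtn3 and Ctsg.

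Of the processing and inhibitor genes, 3 were higher in the U group, 2 lower and 3 not called. Serpinb6a rose by 2.78, Slpi fell by 3.34 and Calr, which encodes the chaperone calreticulin, fell by 1.95. Of the transcription factor genes, 2 were higher, 4 lower and 5 not called. Cebpb rose by 1.45 and Klf4 fell by 1.22. Myb, a factor of immature progenitors, fell by 1.88 on its brighter probe but rose by 0.71 on a dim one (adjusted p over 17712 probes = 0.00043). Of 6 monocyte and macrophage markers, 3 were higher and 3 lower, among them Adgre1, an adhesion receptor gene of macrophages, 4.59 higher, and Csf1r, the receptor for macrophage colony-stimulating factor, 2.62 higher. Ccr2, a chemokine receptor gene of monocytes, was 1.83 lower and above background on 0 of 3 U arrays, and Cx3cr1 and F13a1 fell by 1.10 and 0.68. Their summed intensity was 2824 to 3739 in the C group and 3568 to 4823 in the U group. Of 7 mast cell and basophil markers, 3 were higher and 0 lower in the U group. The part of these cells in the changes of the primary granule genes was not tested.

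**Figure D3:**
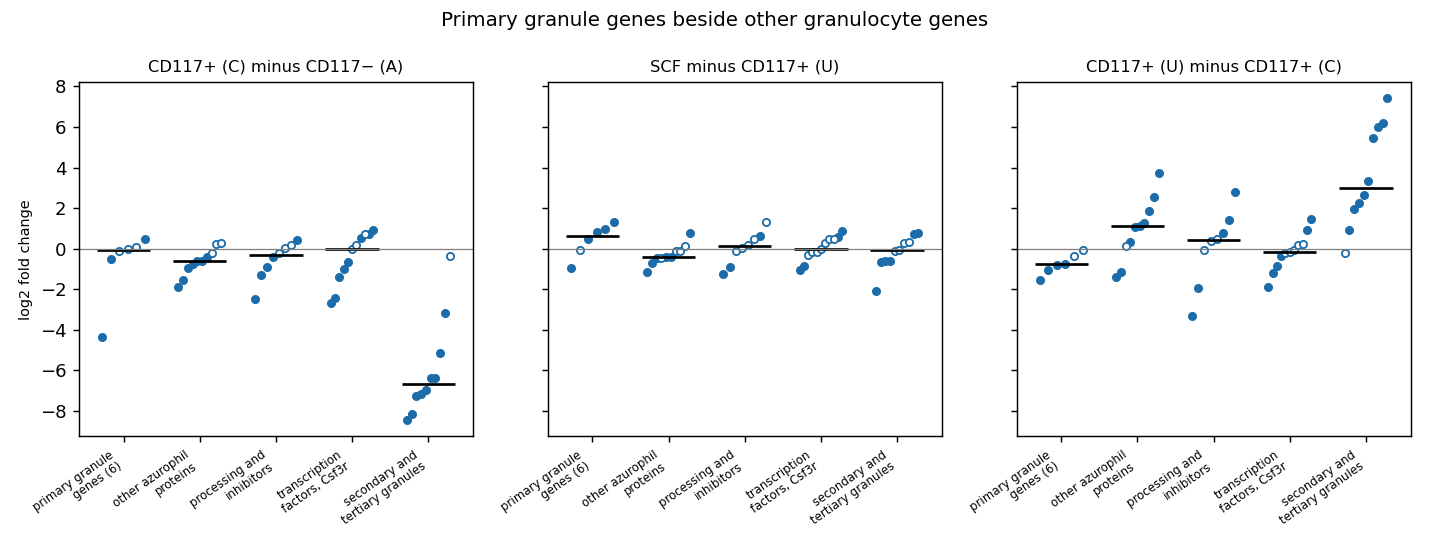
Log2 fold change (y axis) of each tested gene in 5 gene lists (x axis) in 3 comparisons. Filled points passed an adjusted p under 0.05 over 11472 genes and lines are medians. Mmp8, filled between U and C, was above background on 0 of 3 C arrays. The secondary and tertiary granule genes have medians of -6.69, -0.08 and 2.99, the primary granule genes -0.07, 0.64 and -0.78.

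Set against the C group, the SCF group was close for some of the genes and apart for others. Of the 6 genes, 1 was called higher, 2 lower and 3 in neither direction, while 24.6% of all genes were called higher and 21.9% lower. The samples of 3 of the 6 genes did not overlap, against 58.9% of all genes. The median log2 change of the 6 genes was -0.10, that of all genes -0.01. Elane was 2.11-fold lower (-1.08 ± 0.13 SE, n = 3 arrays per group, limma adjusted p = 2.95e-06) and Fcnb 2.44-fold lower (-1.28 ± 0.23, adjusted p = 0.00018), whereas Ms4a3 was 1.49-fold higher (0.57 ± 0.12, adjusted p = 0.000675). For Prtn3 the change was -0.06 (95% confidence interval -0.39 to 0.27), for Ctsg 0.02 (-0.23 to 0.26) and for the brightest Mpo probe -0.15 (-0.35 to 0.05). Mpo probes 3 and 4 fell by 0.64 and 0.83, outside that interval. This comparison shares the SCF samples with the comparison against U and the C samples with that of the fractions. Array set, time in culture and SCF cannot be told apart in it. Of the called genes 52.9% were higher, 73.8% with median scaling and 92.5% in the authors' processed values, in which Ctsg was called higher (0.35, adjusted p = 0.0132) and Fcnb was not called (-0.36, adjusted p = 0.0747). The secondary and tertiary granule genes were higher for 8 of 10 and lower for 0, with a median of 3.12. Mmp8, among the 8, was above background on 0 of 3 C arrays. The other azurophil granule proteins were higher for 6 of 10 and lower for 1, with a median of 0.88. Processing and inhibitor genes were higher for 5 of 8 and lower for 1, and the transcription factor genes higher for 4 of 11 and lower for 3. Of the markers of other cells, 5 of 5 erythroid genes were lower (median -3.02), 2 of 3 eosinophil genes were lower (median -3.55), the 6 tested for monocytes and macrophages split into 3 up and 3 down, and of the 7 for mast cells and basophils 4 rose and 1 fell. Their part in the changes of Elane, Fcnb and Ms4a3 was not tested.

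The 4 Mpo probes, numbered by falling brightness, did not give 1 answer. The scanner intensity of the brightest one averaged 14035 ± 831 (SD, n = 3) in CD117-, 14834 ± 1142 in CD117+ (C), 15275 ± 993 in the U and 14877 ± 523 in the SCF samples, and its rank by brightness ran from 27 to 78 among 45281 probes. Probe 2 ranked 58 to 126, with normalized log2 means of 13.56, 13.58, 13.50 and 13.66 in the A, C, U and SCF groups. Neither probe was called in any of the 4 comparisons. Both lay near the brightest level of the arrays, where the highest scanner intensity was 19953 to 24384, and whether they could still follow a change there was not tested.

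Mpo probes 3 and 4, with ranks of 67 to 531 and 222 to 1340.0, moved much more. Probe 3 measured 12.90, 12.60 and 13.27 on the log2 scale in CD117- cells, 13.74, 13.52 and 13.50 in CD117+ (C) cells, 12.05, 11.90 and 11.81 in the U group and 12.86, 12.58 and 13.39 in the SCF group. Probe 4 measured 12.33, 12.07 and 12.44, then 12.82, 12.73 and 12.68, then 10.98, 11.22 and 10.64, then 11.82, 11.56 and 12.37 in the same order. On both probes the C samples were above all A and U samples and the U samples were the lowest of all. Probe 3 was 1.58-fold higher in CD117+ (C) than in CD117- cells (log2 change 0.66 ± 0.18 SE, adjusted p over 17712 probes = 0.00599) and 2.03-fold higher with SCF than in the U group (1.02 ± 0.18, adjusted p = 0.000566). Probe 4 was 1.38-fold (0.46 ± 0.18, adjusted p = 0.043) and 1.96-fold higher (0.97 ± 0.18, adjusted p = 0.000828). In the U group against the C group they were 3.17-fold and 3.48-fold lower, and in the SCF group against the C group 1.56-fold and 1.77-fold lower. These 2 probes were chosen for description after their values were seen. Across the 12 arrays they followed each other with a Pearson r of 0.961, whereas r between the other pairs of Mpo probes was 0.04 to 0.36. On probes 3 and 4 Mpo went in the direction of Prtn3 and Ctsg between SCF and U and between U and C, and on the 2 brightest probes no change was called.

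**Figure D4:**
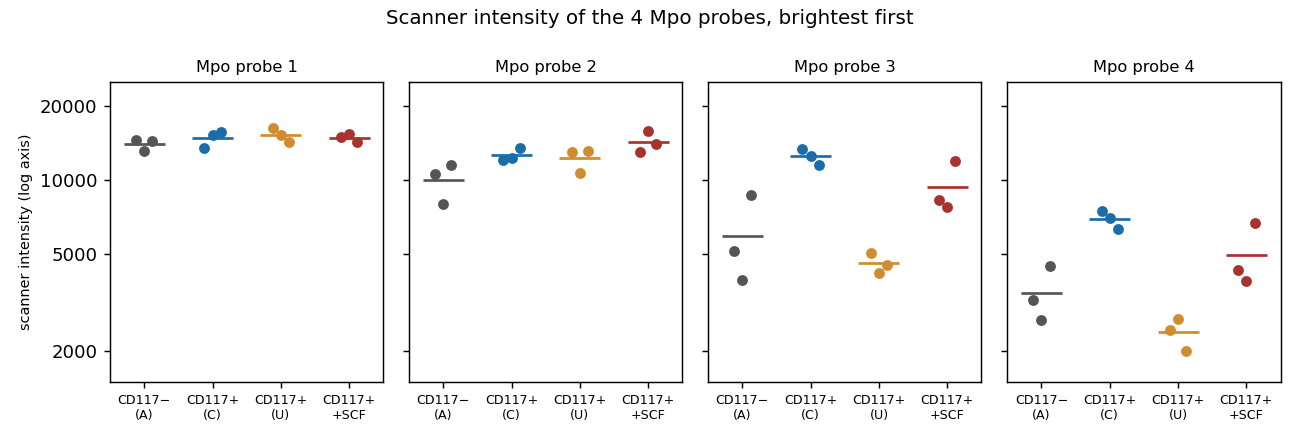
Scanner intensity (y axis, log axis, not normalized) of the 4 Mpo probes, brightest first, in 4 groups of 3 arrays (x axis). Points are arrays and lines are group means. The 2 brightest probes stay between 7982 and 16265, while probes 3 and 4 are higher in the C and SCF groups than in the U group.

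The 2 probes of Fcnb gave like values and those of Ms4a3 did not. The second Fcnb probe changed by -4.33 between CD117+ (C) and CD117- cells, by -0.77 with SCF against U, by -0.52 between U and C (adjusted p over 17712 probes = 0.0511) and by -1.29 between SCF and C, and followed the first with a Pearson r of 0.997 over 12 arrays. The second Ms4a3 probe was dim, above background on 0 of 6 arrays of groups A and C and on all 6 of groups U and SCF. Its log2 means were 4.31 in the A, 4.28 in the C, 5.09 in the U and 6.25 in the SCF group. With SCF it was 2.23-fold higher than in the U group (1.16 ± 0.15 SE, adjusted p over 17712 probes = 4.62e-05), the direction of the brighter probe. It passed the filter only through its U and SCF arrays, so its differences from the C group are given as bounds without a p-value. In the U group it was at least 1.36-fold higher than in the C group, against a fall on the brighter probe. In the SCF group it was at least 3.03-fold higher than in the C group, the direction of the brighter probe. These bounds set the mean of the brighter group against the lowest signal above background on the arrays of the dimmer group. By this bound, the direction of Ms4a3 between U and C differed between its 2 probes, the dimmer one lying near background.

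Among themselves the genes followed each other to different degrees over the 12 arrays, which fall into 4 groups and 2 sets that the authors normalized separately. The Pearson r was 0.80 between Prtn3 and Ctsg, 0.80 between Prtn3 and Ms4a3 and 0.74 between the neighbours Elane and Prtn3, but -0.29 between Ctsg and Fcnb. Elane was closer to Fcnb (0.67) than to Ctsg (0.37), and the brightest Mpo probe reached 0.54 with Fcnb and 0.50 with Elane. The genes most like the mean of the 6 were Incenp (r = 0.968), Pbk (0.967), Aurkb (0.967), Ncapd2 (0.964), Kif18b (0.960), Ncaph (0.957), Kif4 (0.957) and Zeb1 (0.955). No test of what these genes have in common was made. Incenp and Aurkb, which encode partners in the chromosomal passenger complex, changed by 0.65 and 0.72 with SCF against U and by -1.13 and -1.13 between U and C. The nearest single gene was Zmym2 for Mpo (0.887), C2cd5 for Elane (0.983), Rrm1 for Prtn3 (0.957), Cep43 for Ctsg (0.948), Gcnt2 for Ms4a3 (0.905) and Ranbp10 for Fcnb (0.996). Rrm1, which encodes the large subunit of ribonucleotide reductase, changed by 1.06 with SCF against U, beside 0.97 for Prtn3.

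Neighbouring genes on the chromosomes moved in both directions. Of the 30 other protein-coding genes within 3 places on either side, 29 had a probe and 20 were tested. With SCF against U, 2 of these were higher, 4 lower and 14 not called, with a median log2 change of 0.00. Of all genes, 14.1% were called higher and 13.7% lower there. Between U and C 4 were higher, 7 lower and 9 not called, beside 28.5% of all genes in each direction. Between CD117+ (C) and CD117- cells 9 were higher, 4 lower and 7 not called, beside 29.6% and 21.3% of all genes. Mcpt8, which encodes a basophil protease and lies beside Ctsg, measured 6.06 in the A, 8.78 in the C and 10.27 in the U group, so it rose by 1.49 between C and U where Ctsg fell. Epx, the eosinophil peroxidase gene 3 places from Mpo, measured 10.92 in the A, 9.82 in the C and 7.84 in the U group.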

How the data were processed

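The intensities deposited by the authors are linear scanner values, as read and not normalized, beside a detection p-value per probe and array. A further deposited table holds processed intensities, normalized in separate sets. No source used here names the scanner software. The members and gene lists were chosen with earlier results of these data known. Background was corrected by normexp, with negative controls inferred from detection, and all 12 arrays were quantile normalized together and put on the log2 scale (neqc, offset 16, limma 3.58.1, R 4.3.3). Probes detected at p under 0.05 on at least 3 arrays were kept, and the brightest stood for each of 11472 genes. Symbols came from the platform table, updated through RefSeq, and 9497 of 45281 probes had none. A linear model with 4 group means left 8 residual degrees of freedom. Variances were moderated by eBayes with an intensity trend, and p-values were adjusted by Benjamini-Hochberg at 0.05. Other probes come from the same model over 17712 probes. All 6 genes and up to 3 leading called genes of each list were named. The model was tested on simulated data. Figures used matplotlib 3.10.9 in Python 3.11.15. Alternatives were other scalings, filters and probe rules, a replicate block and leaving out each array. The precision is limited by 3 arrays per group.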

Additional observations from a re-analysis of the deposited data

How the results depend on the processing

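Of 216 log2 changes of the 6 genes recomputed under 9 other settings, 198 kept their sign and side of the threshold. Plain normexp with quantile normalization, both other detection filters, a fit without a trend and a fit of only the 6 arrays compared changed none of them. The detection filters, the fits without a trend or of 6 arrays and the replicate block leave each log2 change as it is. They could thus change only a call. All changes came from median scaling, the mean of all probes and the authors' processed values. Median scaling, between CD117+ (C) and CD117- cells, gave 0.61 for Prtn3 (now called), 0.10 for Ms4a3 (from -0.51) and, uncalled, 0.12 for Mpo and 0.29 for Elane. It left Elane at 0.47 but uncalled between SCF and U. The mean of all probes gave Ms4a3 -0.27 (no longer called) and Mpo 0.28 (uncalled) between C and A, Mpo 0.52 (now called) between SCF and U, Mpo -0.90 (now called) and Ms4a3 0.026 between U and C, and Mpo -0.38 (now called) between SCF and C. The authors' processed values, normalized in separate sets, gave Mpo 0.10, Ms4a3 -0.13 and Fcnb 0.25, all uncalled, between U and C, and Mpo 0.042, Prtn3 0.26, Fcnb -0.36 (uncalled) and Ctsg 0.35 (called) between SCF and C, where they called 8549 of all genes in place of 5337.

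Reading Mpo from its probes 2, 3 and 4 in place of the brightest, an alternative chosen after seeing the data, gave 0.018, 0.66 and 0.46 between C and A, 0.16, 1.02 and 0.97 between SCF and U, and 0.080, -0.64 and -0.83 between SCF and C. Between U and C probes 3 and 4 gave -1.67 and -1.80. In each comparison probes 3 and 4 were called and probe 2 was not.

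Leaving out 1 array at a time moved Elane between SCF and U from 0.38 to 0.58, with the call lost for 3 of 6 arrays. It turned the sign of uncalled values only: Mpo -0.074 to 0.035 and Prtn3 -0.016 to 0.26 between C and A, and Prtn3 -0.22 to 0.031 and Ctsg -0.074 to 0.087 between SCF and C. With the replicate block no call of the 6 genes changed, for example Ctsg at 0.48 between C and A (adjusted p = 0.00395). Deviations of same-numbered samples from their group means had correlations of -0.080 to 0.011 between A and C. Over all comparisons they ran from -0.186 to 0.209, with both ends between U and C. Whether an A and a C sample of the same number share a mouse was not stated.

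Precision was limited by 3 arrays per group and, for both bright Mpo probes, by their place near the top of the intensity range. The dim Ms4a3 probe has only bounds in groups A and C.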

Other observations

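RNA of erythroid and B cell marker genes differed between the groups beside the primary granule genes. Of 5 tested erythroid markers, 3 were lower and 1 higher in CD117+ (C) than in CD117- cells, and 4 were lower and 1 higher with SCF than in the U group. Their summed normalized intensity was 52270.0 to 54258 in CD117- cells, 17972 to 21436 in the C group, 10991 to 12637 in the U group and 3813 to 5988 in the SCF group. Of 6 listed B cell markers 2 were tested, and both were lower in CD117+ (C) than in CD117- cells, with summed ranges of 468.4 to 613.9 and 5073 to 6684. Of 4 tested stem and multipotent progenitor markers, Kit among them, 3 were higher and 0 lower in CD117+ (C) cells.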
